A study of Homo sapiens with 11 samples.

Results

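SUCNR1, LRRC31, RASGRF2-AS1 and LHX2-AS1 are 4 genes, of 60605 features in the deposited table, that were low in ARPE-19 cells with GFP (at most 25.3 normalised counts in any library) and abundant in cells that received Oct4 alone. They were chosen by their normalised counts, for a large rise in the Oct4 libraries that was missing in cells given Oct4 together with Sox2 and Klf4 (OSK). SUCNR1, LRRC31 and RASGRF2-AS1 are listed by symbol, and LHX2-AS1 is listed by its identifier ENSG00000236668, which the name table pairs with that symbol. Levels in the Oct4, GFP and OSK libraries are therefore a description, with no test.

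ARPE-19 is an established human cell line from the retinal pigment epithelium (RPE), the pigmented layer that supports the photoreceptors. Stable ARPE-19 lines expressed an open reading frame for GFP (a fluorescent protein, the control; 3 libraries), Oct4, Sox2, Klf4 or OSK (2 libraries each), and polyA RNA was taken after 4 days. The promoter that drives the reading frames, its species, and whether a line is 1 clone are not given in the sources used here. Nothing states that replicates came from separate cultures, so p-values measure only the spread between these libraries.

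Values are normalised counts, the authors' gene counts divided by 1 factor per library. Recovered reads ranged from 15053300 to 19791775 per library. Of the libraries, 9 had a read in 25853 to 26971 features, whereas GFP replicate 1 (library name GFP-a) had one in 42956 and OSK replicate 1 in 32493. Olfactory receptor genes, normally silent outside the nose, were detected at 67.7% of 405 in GFP replicate 1, at 23.0% in OSK replicate 1 and at 4.94% to 8.15% in the others. Low values of a member in these 2 libraries were read with that in view, and GFP levels are given with and without GFP replicate 1. POU5F1, the gene of Oct4, had 67326 and 66823 normalised counts in the Oct4 libraries, 19020 and 19542 in OSK, and 174 to 446 elsewhere. OSK thus had 28.7% of the POU5F1 level of the Oct4 line. Of 14 RPE markers, 11 reached a normalised count of 10 in some library, KRT8 and TYRP1 among them. RPE65, the visual cycle isomerase that defines mature RPE, had at most 4.63 in any library. The RPE markers summed to 31612 to 35264 in GFP, 16944 to 17407 in Oct4, 20219 to 20998 in Sox2, 23466 to 26439 in Klf4 and 13847 to 14222 in OSK. These sums are mostly KRT8 and KRT18, general epithelial keratins. The pigment gene PMEL had means of 5147 in GFP, 612 in Oct4, 140 in Sox2, 1270 in Klf4 and 809 in OSK. TYRP1, TYR and SERPINF1 were likewise lowest in Sox2 and lower in Oct4 than in OSK. Other listed markers went the other way. MITF, KRT8 and SLC16A8 had means of 1893, 10738 and 53.6 in Oct4 and 1661, 7013 and 8.7 in OSK. BEST1 had means of 91.1 in Sox2 and 45.0 in Oct4. The part of these markers in the members' levels was not tested.

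Oct4 is a POU-family transcription factor that keeps embryonic stem cells undifferentiated. POU factors bind an 8-base site, the octamer, and in stem cells Oct4 often binds beside Sox2. SUCNR1 encodes a G protein-coupled receptor for succinate, an intermediate of the citric acid cycle, and is known in retina, kidney and immune cells. LRRC31 encodes a leucine-rich repeat protein known from epithelia, where it has been tied to kallikrein proteases and the response to interleukin-13. RASGRF2-AS1 and LHX2-AS1 are long non-coding RNAs that lie on the opposite strand beside RASGRF2, an exchange factor that activates RAS, and LHX2, a LIM homeobox factor of eye development.

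The regions upstream of the members are shown first, because SUCNR1 carries the octamer. In RefSeq (GRCh38.p14) SUCNR1 lies on chromosome 3 from 151873643 to 151884619 on the plus strand, and the 250 bases before its start, chr3:151873393-151873642, hold ATGCAAAT at 2 places. They are printed 5′ to 3′ on the gene's strand, with capitals for matches to the 4 motifs searched (ATGCAAAT, the octamer; ATGCNAAT, the octamer with 1 free base, which includes it; CATTGT, a SOX core; GGGTGTGG, a KLF-type GC box; both strands each). LRRC31, the other protein-coding member, lies on chromosome 3 from 169839172 to 169869935 on the minus strand and is shown beside it (chr3:169869936-169870185), where the capitals mark a SOX core on the opposite strand.
SUCNR1: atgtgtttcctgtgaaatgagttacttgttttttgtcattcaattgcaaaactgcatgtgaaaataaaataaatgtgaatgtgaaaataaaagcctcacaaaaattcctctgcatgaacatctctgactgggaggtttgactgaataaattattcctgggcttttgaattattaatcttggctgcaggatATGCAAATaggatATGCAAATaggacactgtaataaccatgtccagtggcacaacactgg
LRRC31: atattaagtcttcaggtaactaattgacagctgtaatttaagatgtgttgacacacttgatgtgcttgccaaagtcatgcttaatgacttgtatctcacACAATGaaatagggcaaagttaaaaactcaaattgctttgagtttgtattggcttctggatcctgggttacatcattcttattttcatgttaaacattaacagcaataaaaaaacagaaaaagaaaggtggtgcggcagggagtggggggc

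The SUCNR1 octamers lie 60 to 53 and 47 to 40 bases before the start, on the gene's own strand. Their starts are 13 bases apart, inside a direct repeat whose copies match over 17 bases. Of all 35116 windows in the RefSeq table, taken over the same 250 bases, 573 (1.63%) held an octamer and 13 (0.0370%) held 2 or more. The SUCNR1 window was the only one with 2 octamers on 1 strand at this spacing. LRRC31 had a single SOX core, 151 to 146 bases before its start, a motif held by 9.29% of windows. No motif was found upstream of RASGRF2-AS1 or LHX2-AS1. The GC content of the 4 windows was 35.2% for SUCNR1, 36.8% for LRRC31, 70.4% for RASGRF2-AS1 and 55.2% for LHX2-AS1, against a median of 58.0% over all windows.

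Windows with octamers were then set beside the response to Oct4. Expression was tested by limma on log2(value + 1), with Benjamini-Hochberg adjustment over the 18828 features that reached 10 in 2 or more libraries. A call is an adjusted p under 0.05, and 20.1% of features were called higher and 17.2% lower in Oct4 than in GFP. Tested features with 2 octamers upstream were SUCNR1, E2F3, PRRC2A, POLM, ATF7IP and PIM2, named because they are few. Of the 5 besides SUCNR1, PIM2 was lower (log2 difference -0.59, limma adjusted p = 0.000743) and the others did not pass the test (log2 differences from -0.14 to 0.18). An octamer was present in 1.32% of the windows of tested features, and in 5 of 111 windows (4.50%) of features called higher by at least 3 on the log2 scale. Over all windows called higher the octamer share was 1.38%, and over those called lower 1.28%, both near that of tested features. In the same 111 windows the SOX core was present in 9.01% (5.82% of tested windows) and the KLF-type GC box in 4.50% (2.86%). SUCNR1 itself is 1 of the 5 with an octamer, with HPCAL4, LINC02863, H2BC7 and LINC02535, named after their values were seen.

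SUCNR1 had 579 and 570 normalised counts in the Oct4 libraries. GFP replicates 1 to 3 had 2.98, 0 and 0, the Sox2 libraries 7.85 and 0, the Klf4 libraries 1.16 and 0, and the OSK libraries 6.50 and 7.70. The Oct4 libraries stood far above all others, and the OSK libraries lay above every GFP and Klf4 library but overlapped Sox2. Summed over libraries, 997 reads in Oct4 stood against 3 in GFP, a ratio of 579 (95% interval 198 to 2814), with intervals here and below covering counting error only. All 3 of those GFP reads came from GFP replicate 1, and without it the Oct4 level was at least 386-fold higher, taking 3 reads over the group as the floor. Against OSK, with 13 reads, the ratio was 81.0 (95% interval 47.1 to 153). OSK therefore kept 1.24% of the SUCNR1 level of the Oct4 line, beside 28.7% of its POU5F1 level. Whether the lower POU5F1 level bears on the loss of SUCNR1 was not tested.

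LRRC31 had 216 and 256 normalised counts in the Oct4 libraries. It had 3.97, 0 and 0.97 in GFP replicates 1 to 3, 0 and 0 in Sox2, 1.16 and 2.29 in Klf4, and 1.08 and 1.10 in OSK. The highest value outside the Oct4 line was thus in GFP replicate 1, and the GFP range took in the Klf4 and OSK libraries. Klf4 replicate 1 and both OSK libraries held 1 read each, so their values differ only by the scaling of each library. The ratio of the Oct4 line to GFP was 143 (95% interval 60.8 to 443; 410 reads against 5), and 477 (95% interval 85.1 to 18875) against the 1 read left without GFP replicate 1. Both Sox2 libraries were at 0, so the Oct4 line was at least 162-fold higher there. OSK held 2 reads, a ratio of 216 (95% interval 59.5 to 1793). SUCNR1 in OSK was above every GFP library, whereas LRRC31 in OSK lay within the GFP range only through GFP replicate 1. The other GFP libraries had 0 and 0.97, below OSK, but all of these LRRC31 values rest on at most 1 read per library.

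**Figure D1:**
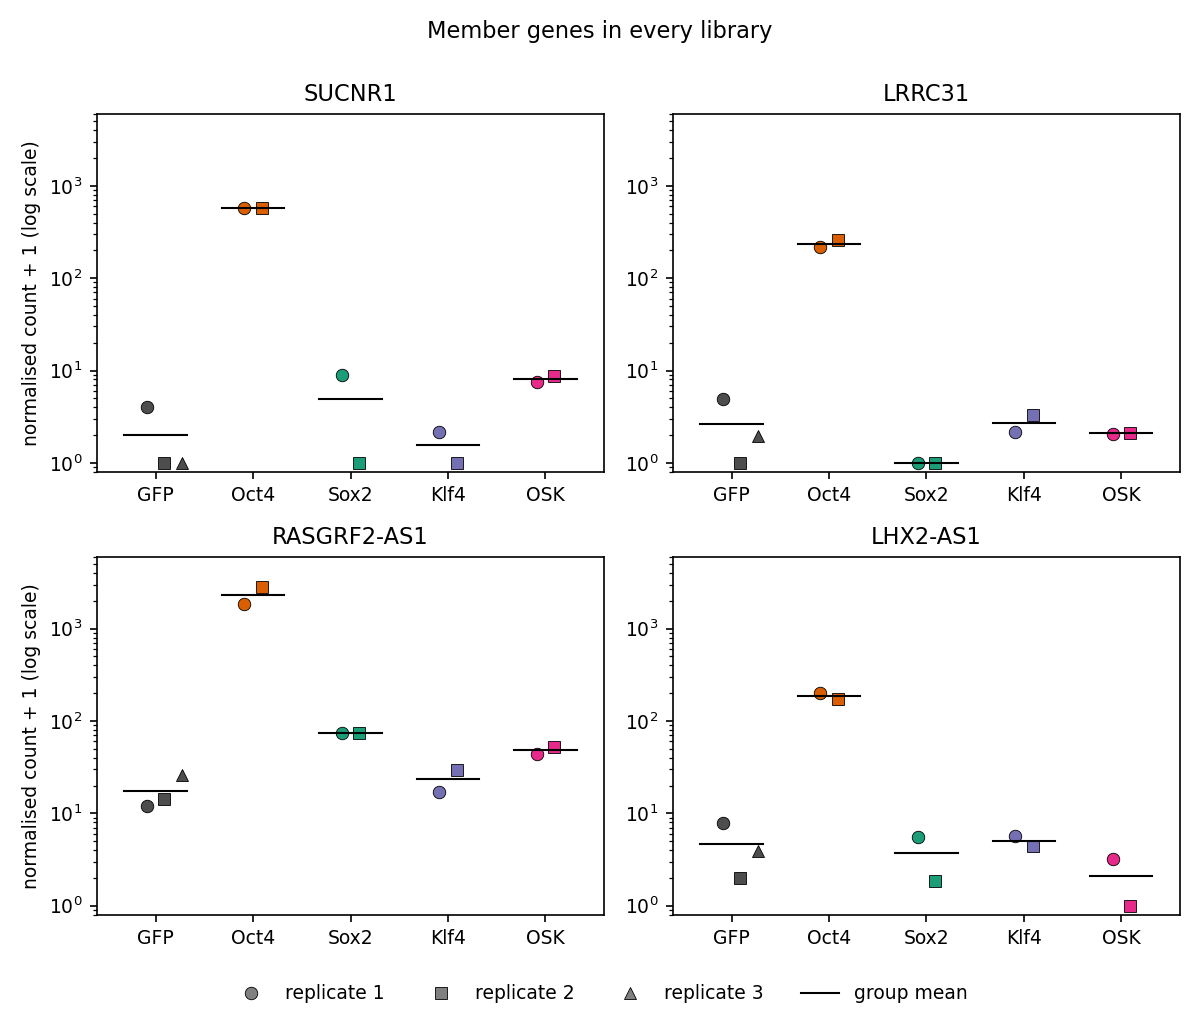
Normalised count plus 1 (log scale) of SUCNR1, LRRC31, RASGRF2-AS1 and LHX2-AS1 in each of the 11 libraries, by group; points are libraries, shaped by replicate number, and lines are group means. In each panel both Oct4 libraries lie above all other libraries, and RASGRF2-AS1 is also higher in both Sox2 and both OSK libraries than in the GFP libraries.

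RASGRF2-AS1 (chromosome 5, 80947693 to 80960907, minus strand) was the most abundant member, with 1856 and 2819 normalised counts in the Oct4 libraries. GFP replicates 1 to 3 had 10.9, 13.2 and 25.3, Sox2 had 72.9 and 72.8, Klf4 had 16.2 and 28.6, and OSK had 43.4 and 51.7. Unlike the other members it was detected in every library, and its Sox2 and OSK libraries lay above all GFP and Klf4 libraries without overlap. The order was Oct4, Sox2, OSK, then Klf4 and GFP, which overlapped. The Oct4 line was 142-fold above GFP (95% interval 107 to 191), 121-fold without GFP replicate 1, 32.1-fold above Sox2 and 49.3-fold above OSK, which kept 2.03% of the Oct4 level. The replicates of the Oct4 line differed more for this gene (2337 ± 681, SD, n = 2) than for SUCNR1 (575 ± 6.68, n = 2).

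LHX2-AS1 (chromosome 9, 124006277 to 124009396, minus strand) had 202 and 172 normalised counts in the Oct4 libraries. It had 6.95, 1.0 and 2.92 in GFP replicates 1 to 3, 4.49 and 0.86 in Sox2, 4.63 and 3.43 in Klf4, and 2.17 and 0 in OSK. The GFP libraries overlapped those of Sox2, Klf4 and OSK, both Klf4 libraries lay above both OSK libraries, and GFP replicate 1 again held the highest value outside the Oct4 line. The ratio to GFP was 51.3 (95% interval 28.3 to 104; 324 reads against 11). Without GFP replicate 1 it was 94.2 (95% interval 36.4 to 348; 4 reads), so that library moved the ratio by over 1.5 times. Against OSK, with 2 reads, it was 171 (95% interval 47.0 to 1418).

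All 4 members passed the filter on low values, and SUCNR1, LRRC31 and LHX2-AS1 did so only through the Oct4 libraries. Between genes, levels were compared per kilobase of exon (GENCODE 29), as means of the Oct4 libraries. RASGRF2-AS1 had 2005 normalised counts per kilobase, SUCNR1 137, LHX2-AS1 87.1 and LRRC31 75.9, and the libraries of LHX2-AS1 (80 to 94.2) and LRRC31 (69.4 to 82.4) overlapped.

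The Sox2 and Klf4 libraries took no part in the choice of the members, so the comparison between them was tested. RASGRF2-AS1 was the only member with enough reads there for the test to be read, and 40.8% of all features were called in this comparison. RASGRF2-AS1 was higher in Sox2 than in Klf4 by 1.71 on the log2 scale (SE 0.35; limma adjusted p = 0.000889), in both Sox2 libraries. The other 3 had 0 to 7 reads per group, too few to show a difference, and nothing is read from their values: 1.02 for SUCNR1 (95% interval -1.05 to 3.08), -1.41 for LRRC31 (-3.30 to 0.47) and -0.64 for LHX2-AS1 (-2.43 to 1.14). The sign of SUCNR1 turned (-0.56) without Sox2 replicate 1, as that of LHX2-AS1 did (0.14) without Sox2 replicate 2.

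As a description, every tested feature was ranked by its Oct4 mean minus the highest of the other 4 group means on the log2(value + 1) scale. The members were chosen for a rise in Oct4 that is missing in OSK, so high ranks were largely fixed by that choice. LRRC31 ranked 1 (6.47), SUCNR1 2 (6.16), LHX2-AS1 7 (5.23) and RASGRF2-AS1 10 (4.95) of 18828. A gap of at least 5 was reached by 9 features, of at least 3 by 56 and of at least 1 by 649; without GFP replicate 1 these counts were 9, 64 and 662. Without GFP replicate 1 the members' ranks were 1, 2, 8 and 10, with LHX2-AS1 moving from 7 to 8. Between them stood ENSG00000253585 (rank 3; 428 and 454 normalised counts in Oct4, 3.25 and 8.80 in OSK), LINC02535, CAPSL, ENSG00000232949, STEAP1B-AS1 and INSYN2A. Of these, CAPSL encodes a calcium-binding protein of the calcyphosine type, and most of the rest are non-coding RNAs.

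**Figure D2:**
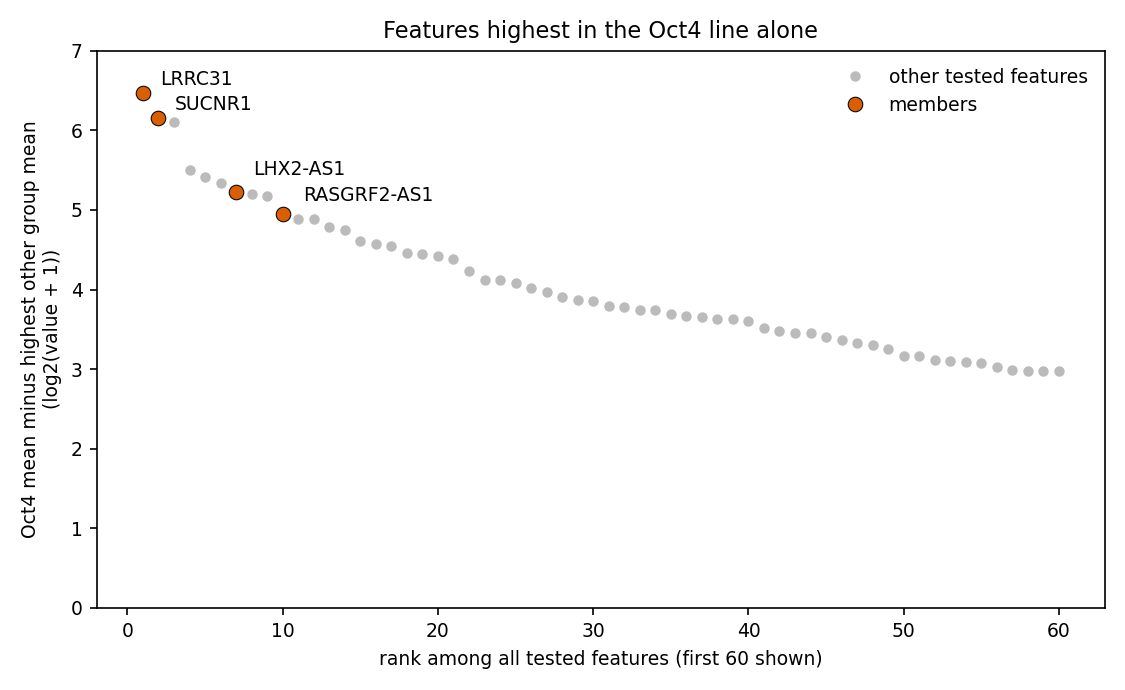
Oct4 mean minus the highest of the other 4 group means (y axis, log2(value + 1)) against rank (x axis) for the first 60 of 18828 tested features; orange points are the 4 members, grey points other features. The members hold ranks 1, 2, 7 and 10, with gaps from 6.47 to 4.95. They were chosen for this pattern, so their ranks are a description only.

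LINC02535, at rank 4, had 172 and 242 normalised counts in the Oct4 libraries, 2.98, 0 and 0.97 in GFP, at most 3.47 in Sox2 and Klf4, and 8.67 and 1.10 in OSK. It was picked after its values were seen, and is shown because it shares with SUCNR1 both the pattern and an upstream octamer. The members LRRC31, RASGRF2-AS1 and LHX2-AS1 share the pattern but had no upstream octamer. CAPSL and INSYN2A, of similar rank, were not among the features with an octamer given above. The LINC02535 octamer, 84 to 77 bases before the start, lies on the strand opposite to the gene, so the gene's own strand reads ATTTGCAT. The 30 bases around it (chromosome 6, minus strand, chr6:85404868-85404897) follow, with the octamer in capitals, beside the 29 bases that hold the SUCNR1 pair (chr3:151873579-151873607).
LINC02535: gagtattatttATTTGCATagcatagacag
SUCNR1: ggatATGCAAATaggatATGCAAATagga

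The features most like each member were found by Pearson's r of log2(value + 1) over the 11 libraries, as a description. The nearest to SUCNR1 was ANKRD26 (r = 0.973), followed by SGMS1 and GAB3. LRRC31 was nearest to BBS7 (r = 0.98), a subunit of the ciliary BBSome, then PCID2 and CD200R1. RASGRF2-AS1 was nearest to TRAM1 (r = 0.991), a protein of the endoplasmic reticulum translocon, with NCOA2 also among its 3 nearest, and LHX2-AS1 to DCTN1-AS1 (r = 0.969), ENSG00000232949 and TSPAN12. Most of these genes were abundant in GFP already: TRAM1 rose from a mean of 4805 to 24175 normalised counts in Oct4 and BBS7 from 698 to 2310. CD200R1, a receptor of the immunoglobulin family, and ENSG00000232949 were low outside the Oct4 line as the members were. CD200R1 had 24.4 and 37.8 in Oct4 and at most 2.17 elsewhere, and ENSG00000232949 had 60.4 and 66.4 in Oct4 and at most 2.98 elsewhere. For each member, 1 of its 3 nearest features was still among the 3 nearest without GFP replicate 1. Among the members r ran from 0.837 (RASGRF2-AS1 with LHX2-AS1) to 0.949 (LRRC31 with LHX2-AS1); all points share the contrast of 2 Oct4 libraries with the rest.

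The antisense members were set beside the genes they are named for, which the choice of members did not use. RASGRF2 had 8316 and 7738 normalised counts in Oct4, 2532, 2079 and 2322 in GFP, 3797 and 3502 in Sox2, 1588 and 1781 in Klf4, and 2027 and 2199 in OSK. RASGRF2 rose with Oct4 (log2 difference from GFP 1.80, SE 0.09; limma adjusted p = 1.91e-10) and with Sox2 (0.66, SE 0.09; limma adjusted p = 1.02e-05). It fell with Klf4 (-0.45, SE 0.09; limma adjusted p = 0.000612). In OSK it differed from GFP by -0.13 (SE 0.09; limma adjusted p = 0.271) and was below the Oct4 libraries (-1.93, SE 0.09; limma adjusted p = 2.14e-10). RASGRF2 and its antisense gene were thus both highest in Oct4 and next in Sox2. Calls against GFP were common in all lines: 37.3% of features in Oct4, 41.6% in Sox2, 33.5% in Klf4 and 39.7% in OSK, with 40.3% in OSK against Oct4.

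The ratio of antisense to partner counts, not corrected for length, differed between lines as well. RASGRF2-AS1 counts were 22.3% and 36.4% of RASGRF2 counts in the Oct4 libraries, at 0.431% to 1.09% in GFP, 1.92% and 2.08% in Sox2, 1.02% and 1.6% in Klf4 and 2.14% and 2.35% in OSK. Per kilobase of exon the order within the Oct4 line was the opposite, with a mean of 2005 normalised counts per kilobase for RASGRF2-AS1 and 749 for RASGRF2. These genes overlap at their 5′ ends: 127 of 1166 exon bases of RASGRF2-AS1 (10.9%) also lie in RASGRF2 exons on the other strand. Use of strand in the counting is not given in the sources used here, so reads from the shared stretch cannot be assigned with certainty. In GENCODE 29 the LHX2 gene starts further upstream than in RefSeq, at 124001670, so that LHX2-AS1 lies within its span. The exons of SUCNR1, LRRC31 and LHX2-AS1 shared no base with another gene in GENCODE 29.

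LHX2 did not follow its antisense neighbour. It had 995 and 889 normalised counts in Oct4, 2552, 2702 and 2760 in GFP, 765 and 855 in Sox2, 1740 and 1998 in Klf4, and 1071 and 1097 in OSK. LHX2 fell in all 4 lines, by 1.5 with Oct4 (SE 0.08; limma adjusted p = 8.43e-10), 1.72 with Sox2, 0.52 with Klf4 and 1.30 with OSK on the log2 scale (limma adjusted p at most 0.000117). OSK and the Oct4 line differed by 0.20 (SE 0.09; limma adjusted p = 0.0815). LHX2-AS1 counts were 20.3% and 19.3% of LHX2 counts in the Oct4 libraries and at most 0.587% in any other library. Per kilobase of exon the Oct4 means were 87.1 for LHX2-AS1 and 355 for LHX2.

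**Figure D3:**
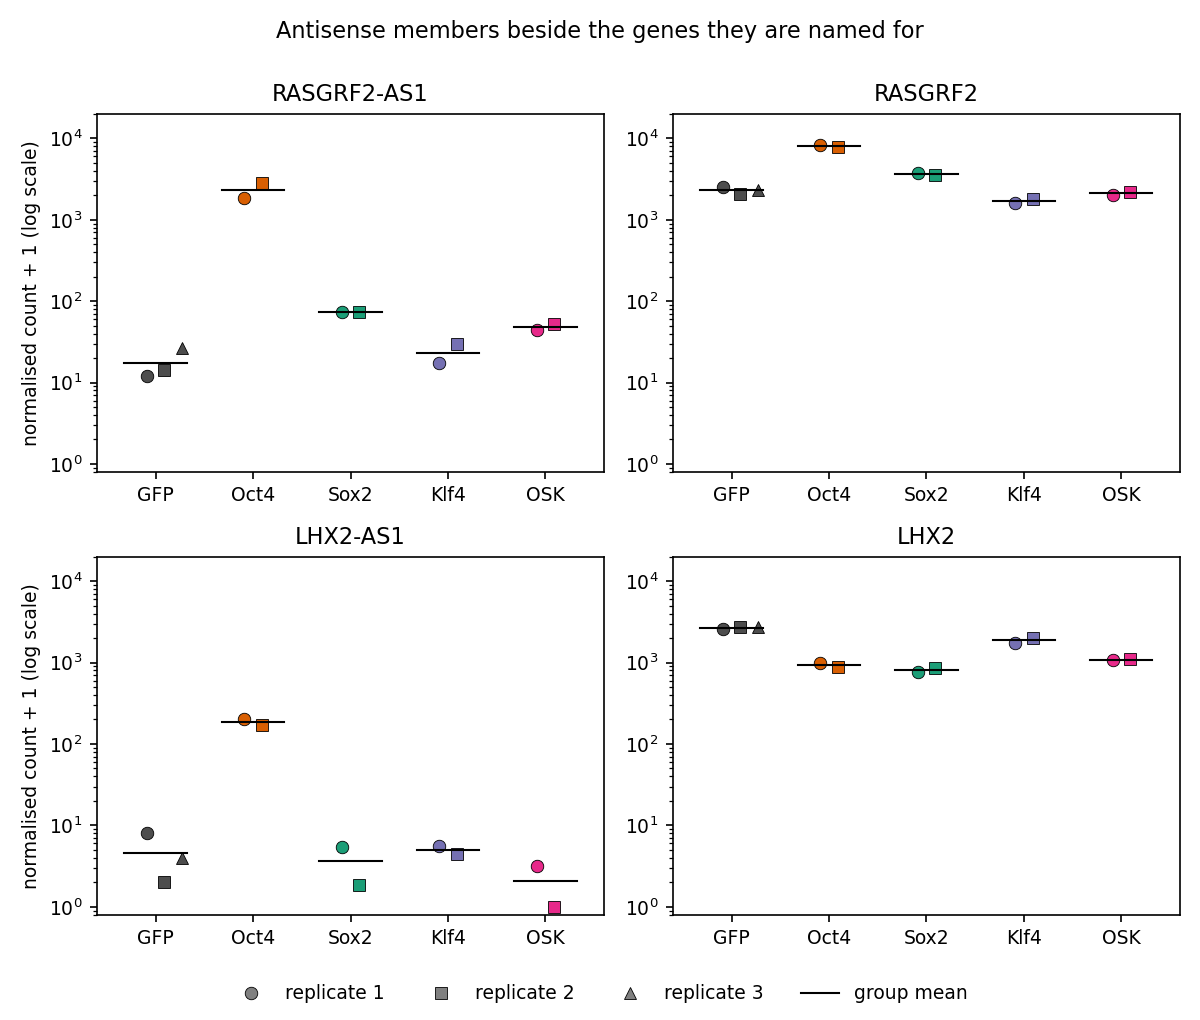
Normalised count plus 1 (log scale) of RASGRF2-AS1, RASGRF2, LHX2-AS1 and LHX2 in each of the 11 libraries, by group; points are libraries, shaped by replicate number, and lines are group means. RASGRF2 is highest in the Oct4 libraries (8316 and 7738), whereas LHX2 is lower in the Oct4 libraries (995 and 889) than in GFP (2552 to 2760).

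The 5 nearest named genes on each side of each member were examined next (40 genes, 27 of them tested). In Oct4 against GFP 9 were higher and 6 lower, together 55.6% against 37.3% of all features, with a median log2 difference of -0.03 against -0.02 over all features. In OSK against Oct4, which shares the Oct4 libraries, 9 were higher and 9 lower (66.7% against 40.3%). Without GFP replicate 1 the counts against GFP were 8 higher and 7 lower.

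Beside SUCNR1, the genes on the left side were nearly silent: AADACL2-AS1, which overlaps its locus, had reads only in GFP replicate 1 (6.95 normalised counts). On the right, MBNL1-AS1 had 395 and 466 in Oct4, 26.8 to 32.4 in GFP, 122 and 114 in Sox2, 37.0 and 35.4 in Klf4, and 124 and 134 in OSK. It rose with Oct4 (log2 difference 3.79, SE 0.18; limma adjusted p = 1.72e-10), lay 377997 bases from SUCNR1, and was lower in OSK than in Oct4 (-1.73, SE 0.19; limma adjusted p = 2.74e-06). In OSK MBNL1-AS1 was still above GFP (log2 difference 2.07, SE 0.18, limma adjusted p = 1.38e-07). Its OSK level (124 and 134) was near that in Sox2 alone (122 and 114), and which factor it follows in OSK was not tested. MBNL1, a splicing regulator that it is named for, rose by 0.49 in Oct4 (limma adjusted p = 4.31e-05).

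Beside LRRC31, the adjoining LRRIQ4 was not tested for low values, and LRRC34, another leucine-rich repeat gene 26268 bases away, had 99.9 and 97.3 normalised counts in Oct4 against 30.1 to 35.4 in GFP. LRRC34 rose with Oct4 (1.55, SE 0.25; limma adjusted p = 0.000135) and was lower in OSK (-0.95, SE 0.27; limma adjusted p = 0.0108). GPR160, an orphan receptor, did likewise (0.87 and -0.97; limma adjusted p = 0.0204 and 0.0175). Its Sox2 libraries (111 and 118) lay above those of Oct4 (98.7 and 98.4), and GFP replicates 1 to 3 had 36.7, 79.9 and 51.5. Of the tested neighbours of LRRC31, 4 were higher in Oct4 than in GFP, and 3 without GFP replicate 1. Beside RASGRF2-AS1, FAM151B also rose with Oct4 (1.39) and fell in OSK against Oct4 (-1.21; limma adjusted p = 0.00529 and 0.0193). Beside LHX2-AS1, 4 of 8 tested neighbours fell with Oct4 (17.2% of all features were called lower). In OSK against GFP 6 of the 8 were lower and 1 higher (87.5% called against 39.7% of all features, of which 3759 of 18828 were lower). Those that fell with Oct4 were CRB2, a polarity protein (-1.66, SE 0.06), LHX2, the kinase NEK6 (-0.79, SE 0.07) and DENND1A (-0.37; limma adjusted p at most 0.00124).

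**Figure D4:**
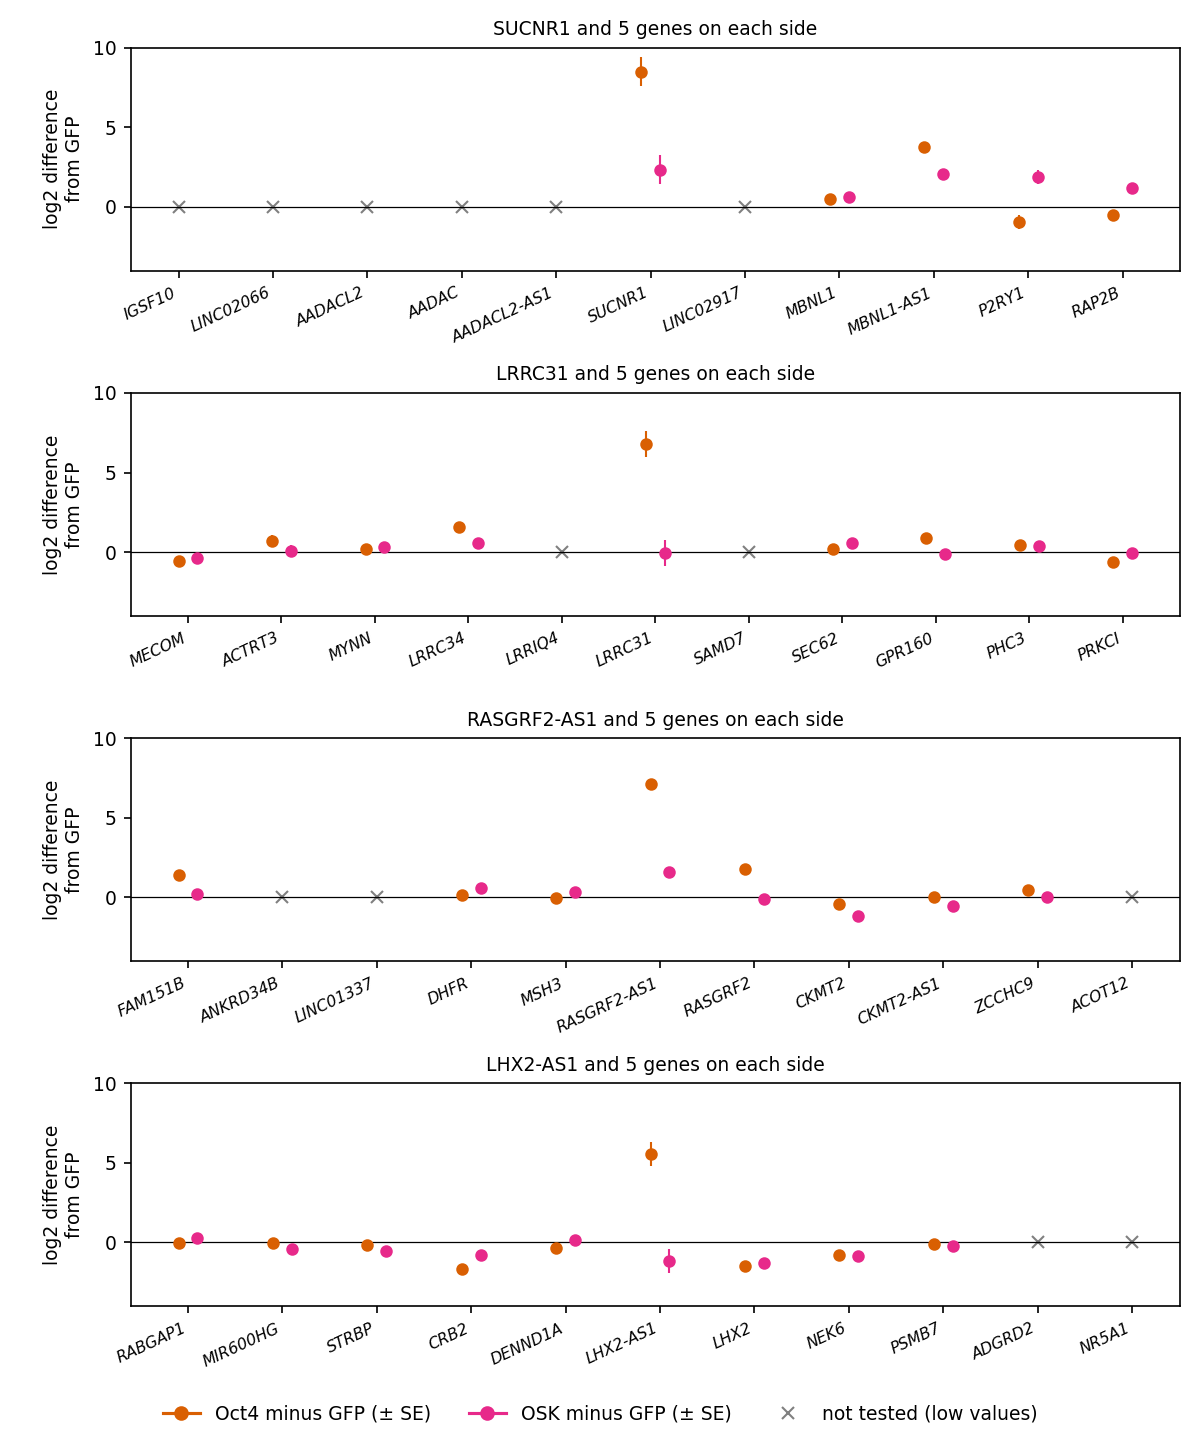
Log2 difference from GFP (y axis, ± SE) for each member and the 5 nearest named genes on each side (x axis, in chromosome order, not to scale), in the Oct4 line (orange) and OSK (pink); crosses mark genes not tested for low values. Among neighbours, MBNL1-AS1 (3.79) and RASGRF2 (1.80) are the highest in the Oct4 line.

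Genes linked to the members by function were taken from 6 lists. Of 22 receptors related to SUCNR1 by ligand or family, 6 were tested; P2RY2, P2RY6 and GPR17 were higher in Oct4 than in GFP and P2RY11 lower (66.7% against 37.3% of all features), and the median was 0.08 against -0.02. P2RY2, a nucleotide receptor, had a mean of 126 normalised counts in Oct4 and 60.2 in GFP (log2 difference 1.08, SE 0.19; limma adjusted p = 0.000352), and was higher again in OSK (264; 1.07 above Oct4; limma adjusted p = 0.000729). The rise of P2RY2 was thus not lost in OSK, and P2RY2 was highest in Klf4 (mean 1225).

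Of 20 tested genes of succinate handling, 7 were higher and 2 lower in Oct4 (45.0% against 37.3% of all features; median 0.21 against -0.02). ABAT, a transaminase of the GABA shunt, which leads to succinate, rose most (2.69, SE 0.10; limma adjusted p = 2.06e-11). It had means of 1480 normalised counts in Oct4, 229 in GFP and 268 in OSK, where it was lower than in Oct4 (-2.47, SE 0.11; limma adjusted p = 1.36e-10). OXCT1, a ketone body enzyme that releases succinate (1.06), and SDHA, the catalytic subunit of succinate dehydrogenase (0.86), also rose in Oct4 and were lower in OSK (-1.16 and -0.42; limma adjusted p at most 0.0266). SDHAF1 and SLC25A10, an assembly factor and the dicarboxylate carrier, were lower in Oct4 (-0.65 and -0.75; limma adjusted p = 0.000761 and 0.00822). In OSK against Oct4, 5 of the 20 were higher and 5 lower (50.0% against 40.3% of all features, median 0.07 against -0.0042). DLST and SLC16A1 had means of 1508 and 3171 in Oct4 and 1987 and 4231 in OSK.

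Around RASGRF2, 20 genes of RAS proteins and exchange factors were tested, RASGRF2 included; 7 were higher and 1 lower in Oct4 (40.0% against 37.3%; median -0.0099). RASGRP1, another RAS activator, had means of 359 normalised counts in Oct4, 68.4 in GFP and 43.7 in OSK (log2 difference 2.40, SE 0.24; limma adjusted p = 1.03e-06; OSK minus Oct4 -3.00, SE 0.27; limma adjusted p = 1.97e-07). RGL1, a RAS effector, had means of 7524, 1722 and 1251 (2.12, SE 0.09; limma adjusted p = 7.18e-11; OSK minus Oct4 -2.58, SE 0.10; limma adjusted p = 2.21e-11). SOS2 (0.81), an exchange factor for RAS, rose less. In OSK against Oct4, 11 of the 20 were lower and 2 higher (65.0% against 40.3%; median -0.56 against -0.0042).

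For LRRC31, 6 of 19 kallikrein and interleukin-13 response genes were tested, with 4 higher and 1 lower in Oct4 (83.3% against 37.3%). As many were called in Sox2 and in Klf4 against GFP (5 of 6 each), and 6 of 6 in OSK. POSTN, a matrix protein induced by that cytokine, had means of 53.1 normalised counts in Oct4, 11.9 in GFP and 3.82 in OSK. It rose with Oct4 (2.10, SE 0.53, limma adjusted p = 0.00507), but its Sox2 libraries (34.8 and 55.7) overlapped those of Oct4 (60.4 and 45.8). IL13RA1 and IL4R had means of 1552 and 616 in Oct4, 727 and 376 in GFP, and 1486 and 578 in OSK. IL13RA1 was higher still in Sox2 (mean 2268). KLK11 was lower in Oct4 (-0.58, SE 0.19; limma adjusted p = 0.0257), and FLG, a cornified envelope protein, rose in Oct4 (1.11, SE 0.32; limma adjusted p = 0.0116) and was far higher in OSK (mean 1182 against 64.0 in Oct4). Of 10 tested LIM homeobox and cofactor genes, 3 were higher and 4 lower in Oct4 (70.0% against 37.3%), with LHX2 the largest fall, and LHX4 rose (1.14, SE 0.21; limma adjusted p = 0.000526) and was lower in OSK (-1.66, SE 0.23).

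The listed textbook targets and partners of Oct4 in stem cells did not rise with the members. The list leaves out SOX2 and KLF4, which were delivered factors here. SOX2 had means of 188 normalised counts in Oct4, 62 in GFP and 160 in Klf4 (Oct4 minus GFP 1.63, SE 0.18, limma adjusted p = 2.6e-06). KLF4 had means of 245 in Oct4, 72.1 in GFP and 89.9 in Sox2. Of the 20 listed genes 13 were tested. By limma 0 were higher in Oct4 than in GFP (20.1% of all features were), also 0 at an unadjusted p under 0.05, and 0 by edgeR and DESeq2. DNMT3B was lower (-0.39, SE 0.15; limma adjusted p = 0.0492), with overlapping libraries, a call that was lost without GFP replicate 1 (adjusted p = 0.133). The list's median was -0.52 against -0.02 over all features. Against GFP, 7 of the 13 were lower and 1 higher in Sox2 (61.5% against 41.6% of all features, median -0.88). In OSK 5 were lower and 0 higher (38.5% against 39.7%, median -0.53), and in Klf4 0 were called. Without GFP replicate 1, 6 were lower and 2 higher in Sox2, and 3 were lower and 0 higher in OSK. NANOG had 5.81 and 8.01 normalised counts in the Oct4 libraries against 14.2 to 16.9 in GFP. Among markers of other cells, those of immune cells, which can carry SUCNR1, reached 10 in some library for 4 of 7 and summed to 98.4 and 110 in Oct4 and 186 to 204 in GFP, with the GFP libraries above both Oct4 libraries. PTPRC, which defines blood cells, had at most 2.24 in any library, and LYZ at most 2.24. In bulk RNA, more cells that express a gene and more RNA per cell cannot be told apart.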

How the data were processed

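PolyA RNA was sequenced from 11 ARPE-19 libraries (3 GFP; 2 each of Oct4, Sox2, Klf4 and OSK, grouped by sample titles). The deposited signal is in normalised counts, which by their spacing are gene counts that the authors divided by 1 factor per library and rounded to 2 decimals. The submitters' processing notes name STAR 2.7.1a and featureCounts 1.6.2, and the builds GRCh38, hg38, GRCm38 and mm10 without a role. Use of strand and the annotation are not given in the sources used here. Reads were recovered by dividing by the value of 1 read; 100% of nonzero values were whole multiples within 0.0061. For GFP replicates 1 and 2 that value is near 1 (0.993 and 1.01), and there the spacing of low values says less.

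The fit was limma 3.58.1 (trend, R 4.3.3) on log2(value + 1), a scale that understates changes of low genes, over the 18828 features that reached 10 in 2 or more libraries. All 11 libraries were fitted with 1 mean per group (6 residual and 9.21 prior degrees of freedom), with Benjamini-Hochberg adjustment and a threshold of 0.05. Ratios of reads have exact 95% intervals. The procedure was tested on simulated data. Alternatives were edgeR 4.0.16 and DESeq2 1.42.0 on recovered reads, TMM scaling, no filter, pseudocounts 0.25 and 5, only the compared groups, a replicate block and omission of each library in turn.

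The members and lists were chosen with earlier results of these data known. Named genes were the members, the delivered factors, RASGRF2 and LHX2, the 3 features most like each member, the first 6 other features of the rank, called neighbours, and at most 5 called genes per list; some items that this rule names are not reported here. Lists came from general knowledge, and neighbours and promoter windows from RefSeq (GRCh38.p14), with all 4 members matched. Protein sequences were not used here.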

Additional observations from a re-analysis of the deposited data

How the results depend on the processing

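The counts of features called stayed within 1.5 times the reported value under every alternative run, for the 6 comparisons made. For Oct4 against GFP (7018) they ranged from 5759 to 7105 over settings and from 5126 to 7219 when 1 library was left out, and for OSK against Oct4 (7585) from 6438 to 7801 and from 5993 to 6221. A line left with 1 library was assumed to vary like the other groups. The calls for RASGRF2 and LHX2 held in every comparison and alternative run, and so did that of RASGRF2-AS1 in Sox2 against Klf4 (1.21 to 1.75 over settings, 1.32 to 2.10 with 1 library left out; adjusted p from 9.04e-05 to 0.0189). In that comparison the sign turned for SUCNR1 without Sox2 replicate 1 (-0.56; range over left-out libraries -0.56 to 2.59) and for LHX2-AS1 without Sox2 replicate 2 (0.14; range -1.42 to 0.14), neither of which passed the test. The members' log2 differences depend on the pseudocount: SUCNR1 in Oct4 minus GFP was 8.5, and 9.94 and 6.63 with pseudocounts of 0.25 and 5. The largest moves came with TMM scaling and log2(CPM + 1), where 1 CPM weighs more than 1 normalised count: 5.01 for SUCNR1, 3.73 for LRRC31, 6.11 for RASGRF2-AS1 and 3.28 for LHX2-AS1. Depth limits the members outside the Oct4 line, where SUCNR1, LRRC31 and LHX2-AS1 rest on 0 to 13 reads per group.

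With the replicate number as a block, 6072 features were called in Oct4 against GFP and 7381 in Sox2 against Klf4, and RASGRF2-AS1 in the latter had an adjusted p of 9.04e-05. The labels do not say that a number marks a shared batch. Deviations from the group means correlated above 0.1 in 2 of 20 same-numbered pairs (GFP with OSK, replicates 1 and 2; r = 0.435 and 0.310), and the lowest r was -0.07. In a group of 2 libraries the deviations mirror each other, so the 20 pairs are not separate checks, and the 2 values for GFP with OSK are not independent. The numbers were not taken to pair the libraries, although GFP and OSK deviated together, and replicate 1 of both groups had the most features with a read.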

Other observations

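Further features had the members' pattern and were named after their values were seen. BCO1, the enzyme that cleaves beta-carotene to retinal, ranked 11 by the gap between Oct4 and the other groups, next after RASGRF2-AS1. It had 388 and 406 normalised counts in the Oct4 libraries, 14.9, 1.0 and 2.92 in GFP replicates 1 to 3, at most 5.78 in Sox2 and Klf4, and 14.1 and 11 in OSK. HAS3, a hyaluronan synthase, ranked 14, with 3825 and 5909 in the Oct4 libraries, 44.5 to 79.4 in GFP, 146 and 212 in Sox2, 32.4 and 52.6 in Klf4, and 87.8 and 135 in OSK. SYT16, of the synaptotagmin family, ranked 12, with 174 and 188 in the Oct4 libraries and at most 11.9, in GFP replicate 1, elsewhere.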
